A study of Arabis alpina with 12 samples.

Results

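In the perennial Arabis alpina, 25 of 34220 genes had their highest transcript level in V3 buds of Aatoe2_IL plants, while wild-type buds and the main shoot apices of both genotypes held less than 0.5 times that level. A gene was taken when its mean in Aatoe2_IL buds was at least 3 CPM (reads of the gene for every 1000000 reads counted in genes) and at least 2 times the mean of each of the other 3 groups. Its lowest Aatoe2_IL bud library also had to lie above the highest of the other 9 libraries, and its wild-type bud mean had to reach 0.5 CPM. Of 16937 genes with 3 CPM or more in Aatoe2_IL buds, 38 met the 2-fold condition and 26 of these did not overlap with the other 9 libraries. All 26 also met the minimum in wild-type buds. SPL3, a flowering regulator, was left out by name. Heat shock genes and 13 further genes were to be left out too, but none with a name in the authors' tables met the levels asked for. The 9 chosen genes without an orthologue in those tables could not be checked for them. Because the levels in Aatoe2_IL buds against the other groups chose these 25 genes, those levels are given as a description and are not tested.

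The 4 groups, with 3 libraries each, were main shoot apices and V3 buds of wild type and of Aatoe2_IL, all in the accession Pajares. Every plant had 8 weeks of long days followed by 8 weeks of vernalization, that is cold, in short days. Aatoe2_IL is named after AaTOE2, a gene of the APETALA2 family of transcription factors, and the sources used here do not say what its lesion is. With this single line, AaTOE2 and anything else that sets the line off from wild type cannot be told apart. Replicates carry numbers in the labels, with no statement on whether they were separate plants, and p-values therefore measure the spread among these libraries only, which may be technical.

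V3 buds were sampled by the study to follow how axillary branches develop, and apices to follow flowering in the cold. In a perennial that flowers after winter, axillary buds either stay inactive, grow out as leafy branches or become flowering branches, and transcription factors of several families steer leaf growth and organ identity in them. The families met here are known from Arabidopsis. TCP factors of the CIN type end cell division in young leaves, PIF factors couple growth to light, and MYB and BTB-domain proteins adjust pigment synthesis and responses to nutrients and stress. In whole buds, more cells of a type cannot be told apart from more RNA per cell.

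Of the 25 genes, 16 were paired with an Arabidopsis orthologue in the authors' lists, 9 of them with a symbol, and 9 had no orthologue there. In the authors' deposited table of genes higher in Aatoe2_IL buds 20 of the 25 are listed, against 0.789% of all genes, and the names exist through that table. It rests on the contrast that chose the genes, and nothing is read from this count. Every identifier occurred as a single copy in the count table. Levels in Aatoe2_IL buds ran from 3.14 to 43.1 CPM with a median of 6.99, against a median of 23.2 CPM over the 19520 genes tested. At between 9411616 and 12309478 reads in genes per library, 1 CPM is close to 10 reads, so that the levels of many of these genes in the other groups rest on few reads.

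**Figure D1:**
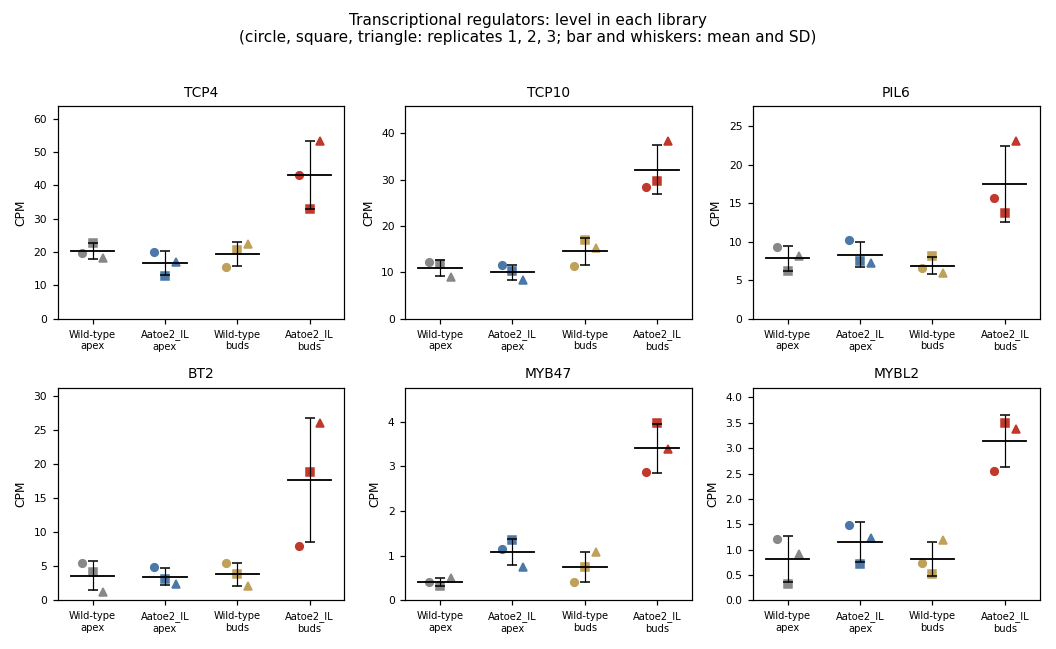
CPM (vertical axis, from 0) of the 6 regulator genes in each library of the 4 groups, with points for replicates, bars for means and whiskers for the SD (n = 3). All 3 Aatoe2_IL bud libraries lie above the other 9 for each gene, which the choice of genes fixes, while the other 3 groups lie close together for TCP4, TCP10, PIL6 and BT2.

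Transcriptional regulators made up 6 of the 9 genes with a symbol. The same list of name patterns for transcription factors and co-regulators holds 40 of the 303 genes with a symbol in the authors' tables. The 40 include these 6, and the list was chosen with earlier results of these data known, so that nothing is read from these counts. TCP4 (Aa_G1290h1) and TCP10 (Aa_G561790h1), CIN-type TCP factors that promote leaf cell differentiation in Arabidopsis, had the highest levels of the 25. TCP4 had 43.1, 33.0 and 53.2 CPM in Aatoe2_IL bud replicates 1, 2 and 3 and 15.5, 20.6 and 22.5 CPM in wild-type buds. In apices TCP4 had 19.7, 22.8 and 18.3 CPM in wild type and 20.0, 12.9 and 17.2 CPM in Aatoe2_IL. The 9 other libraries of TCP4 thus overlapped with each other across tissue and genotype, and its Aatoe2_IL bud mean of 43.1 ± 10.1 CPM (SD, n = 3) was 2.13 times the highest other mean.

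TCP10 followed the same course at a lower level. It had 28.5, 29.7 and 38.2 CPM in Aatoe2_IL buds, while wild-type buds had 11.3, 17.0 and 15.3 CPM, a ratio of means of 2.21. Apices held 12.3, 11.8 and 9.06 CPM of TCP10 in wild type and 11.6, 10.2 and 8.26 CPM in Aatoe2_IL. Wild-type buds overlapped with wild-type apices for this gene. A further CIN-type factor, TCP24 (Aa_G538600h1), is the only other TCP gene named in the files and stood just outside the 2-fold limit. It went from 21.6 ± 4.02 CPM in wild-type buds to 42.1 ± 3.50 CPM in Aatoe2_IL buds (SD, n = 3), with 19.5 ± 2.77 and 18.8 ± 3.76 CPM in wild-type and Aatoe2_IL apices. TCP24 met the other conditions of the choice and was named through the authors' bud list. Its fitted log2 change of 1.01 (SE 0.15) in Aatoe2_IL buds is therefore given as a description and not tested. In apices its log2 change by edgeR's quasi-likelihood test was -0.06 (SE 0.16, Benjamini-Hochberg adjusted p = 0.879).

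PIL6 (Aa_G262260h1), also known as PIF5, is a basic helix-loop-helix factor that promotes elongation and is broken down in light. Its levels were 15.7, 13.7 and 23.0 CPM in Aatoe2_IL buds and 6.59, 8.11 and 5.92 CPM in wild-type buds. In apices PIL6 had 9.34, 6.15 and 8.14 CPM in wild type and 10.2, 7.54 and 7.21 CPM in Aatoe2_IL, so that these groups overlapped. Other named genes of this family went the opposite way in buds, though they carry names because the authors selected them on these samples. PIL1, a shade-responsive factor, fell by 2.61 on the log2 scale in Aatoe2_IL buds (SE 0.50, adjusted p by edgeR 0.00819), from 6.09 ± 1.32 to 0.962 ± 0.265 CPM. It also fell in Aatoe2_IL apices, by 2.34 (SE 0.48, adjusted p by edgeR 0.0311), from 6.01 ± 1.21 to 1.23 ± 1.05 CPM. PIL2 fell in buds by 2.29 (SE 0.61, edgeR adjusted p = 0.0427), from 23.7 ± 20.8 to 4.67 ± 3.22 CPM, with a wide spread in wild type. Wild-type apices had 42.7 ± 13.99 CPM of PIL2 and Aatoe2_IL apices 19.8 ± 6.64 CPM, a difference that did not pass (adjusted p by edgeR 0.290).

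BT2 (Aa_G325820h1), a BTB and TAZ domain protein linked to nutrient and hormone responses in Arabidopsis, had 7.97, 18.9 and 26.1 CPM in Aatoe2_IL buds. The other groups stood at 5.55, 3.90 and 2.17 CPM in wild-type buds, 5.52, 4.24 and 1.25 CPM in wild-type apices and 4.91, 3.10 and 2.47 CPM in Aatoe2_IL apices. Replicate 1 was the highest library of BT2 in each of those 3 groups and the lowest in Aatoe2_IL buds. The ratio of its Aatoe2_IL bud mean to the highest other mean was 4.56, and the coefficient of variation (CV, SD over mean) in Aatoe2_IL buds was 51.7%.

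The 2 MYB genes were the lowest of the regulators. MYBL2 (Aa_G214090h1), a small MYB protein that represses anthocyanin synthesis in Arabidopsis, had 2.55, 3.50 and 3.38 CPM in Aatoe2_IL buds. It ranged from 0.332 to 1.49 CPM over the other 9 libraries. MYB47 (Aa_G676960h1), a further MYB transcription factor gene, had 2.87, 3.97 and 3.38 CPM in Aatoe2_IL buds and 0.419, 0.737 and 1.09 CPM in wild-type buds. Aatoe2_IL apices, with 1.14, 1.34 and 0.759 CPM of MYB47, lay above wild-type apices, with 0.406, 0.332 and 0.499 CPM, in every library. Among the 34 genes of the transcription list that were not chosen here, 10 rose and 6 fell in Aatoe2_IL buds by edgeR's test, against 2.98% of all genes higher and 1.97% lower, and all carry names because the authors selected them on these samples.

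**Figure D2:**
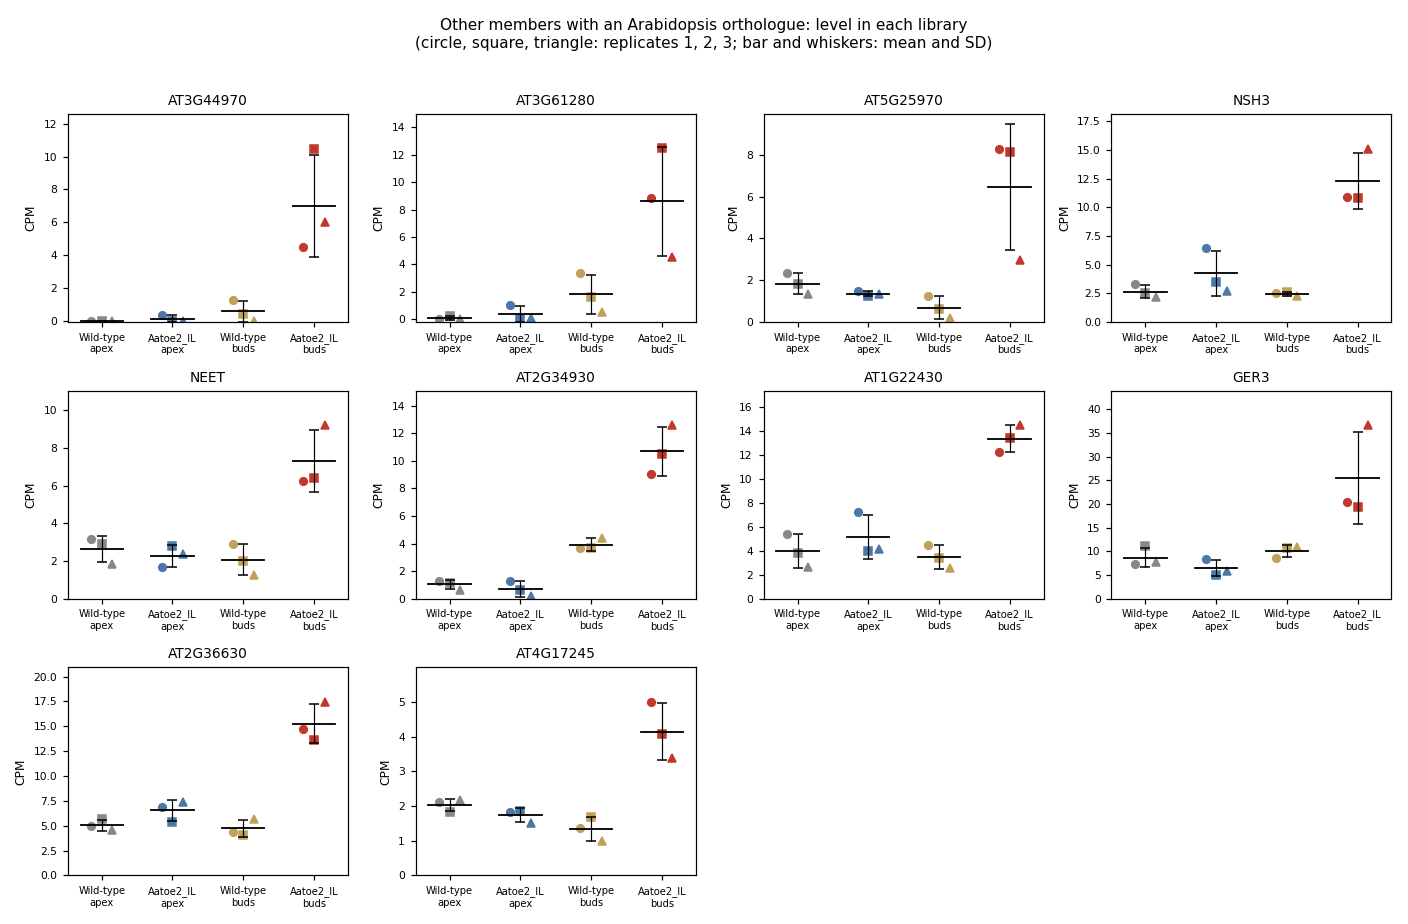
CPM (vertical axis) of the other 10 genes with an Arabidopsis orthologue in each library of the 4 groups, with points for replicates, bars for means and whiskers for the SD (n = 3). AT3G44970 and AT3G61280 are near 0 in both apex groups, whereas AT1G22430, AT2G36630, GER3, NEET and NSH3 have a base level in all 3 other groups.

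Enzymes and proteins of the cell surface and organelles formed the rest of the genes with an orthologue. NSH3 (Aa_G354520h1), a nucleoside hydrolase of the apoplast that releases bases from purine nucleosides, had 10.9, 10.8 and 15.1 CPM in Aatoe2_IL buds and 2.51, 2.63 and 2.27 CPM in wild-type buds. Aatoe2_IL apices, with 6.49, 3.51 and 2.75 CPM of NSH3, were the highest of the other groups and overlapped with wild-type apices at 3.33, 2.49 and 2.16 CPM. The ratio of the bud means of NSH3 was 4.97. NEET (Aa_G687780h1), an iron-sulphur protein with a part in iron and redox balance, had 6.27, 6.43 and 9.19 CPM in Aatoe2_IL buds and between 1.28 and 3.17 CPM in the other 9 libraries.

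GER3 (Aa_G15430h1) encodes a germin-like protein of the extracellular matrix. It had 20.4, 19.3 and 36.5 CPM in Aatoe2_IL buds, 8.69, 10.6 and 10.9 CPM in wild-type buds and between 5.06 and 11.05 CPM in apices. Replicate 3 held most of the excess of GER3, whose ratio to wild-type buds was 2.53 with all libraries. Its relative GER1 (Aa_G187190h1) was not among the 25 because Aatoe2_IL apices had 13.6 ± 4.997 CPM (SD, n = 3). In buds GER1 rose from 5.10 ± 0.873 to 19.3 ± 4.67 CPM, a log2 change of 1.96 (SE 0.26, adjusted p by edgeR 0.000797), though GER1 too is named through the authors' selection on these samples.

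AT1G22430 (Aa_G198650h1), of the zinc-dependent alcohol dehydrogenase family, had the closest agreement between Aatoe2_IL bud libraries, with 12.2, 13.4 and 14.5 CPM and a CV of 8.43%. Wild-type buds had 4.50, 3.37 and 2.57 CPM of it, and apices between 2.66 and 7.28 CPM. AT2G36630 (Aa_G402640h1), a membrane protein related to bacterial sulphite exporters, had 14.8, 13.6 and 17.4 CPM in Aatoe2_IL buds and 4.40, 4.11 and 5.73 CPM in wild-type buds. For both genes Aatoe2_IL apices had the highest mean of the other groups, at 5.16 ± 1.84 and 6.54 ± 1.05 CPM, and wild-type buds the lowest. AT4G17245 (Aa_G96280h1), of a RING finger family, had 4.99, 4.06 and 3.38 CPM in Aatoe2_IL buds and was 2.04 times the wild-type apex mean, next to the limit.

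AT5G25970 (Aa_G113020h1), of a glycosyltransferase family, had 8.29, 8.13 and 2.96 CPM in Aatoe2_IL buds and its lowest levels in wild-type buds, with 1.26, 0.632 and 0.197 CPM. Apices lay between, with 2.36, 1.83 and 1.33 CPM in wild type and 1.49, 1.24 and 1.33 CPM in Aatoe2_IL. Its ratio of bud means, 9.29, was thus far above its ratio of 3.51 to wild-type apices. AT2G34930 (Aa_G264070h1), a leucine-rich repeat protein of a family with roles in disease resistance, had 9.03, 10.5 and 12.6 CPM in Aatoe2_IL buds and 3.66, 3.69 and 4.44 CPM in wild-type buds. Both apex groups were lower and overlapped, with 1.3, 1.16 and 0.665 CPM in wild type and 1.32, 0.620 and 0.190 CPM in Aatoe2_IL, so that wild-type buds already stood above every apex library.

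Stepwise profiles of that kind, low in apices, higher in wild-type buds and highest in Aatoe2_IL buds, were most marked in 5 genes with under 0.3 CPM in wild-type apices. They were grouped after their values had been seen. AT3G44970 (Aa_G634170h1), a cytochrome P450 gene, had 0 counts in all 3 wild-type apex libraries, 4 counts in Aatoe2_IL apices, all in replicate 1, and 1.26, 0.421 and 0 CPM in wild-type buds. In Aatoe2_IL buds it had 4.46, 10.5 and 6.02 CPM, and its ratio of bud means, 12.5, was the largest of the 25. AT3G61280 (Aa_G81170h1) had 8.82, 12.5 and 4.54 CPM in Aatoe2_IL buds and 3.35, 1.58 and 0.494 CPM in wild-type buds. In apices AT3G61280 had 3 counts in wild type, all in replicate 2, and 13 in Aatoe2_IL, of which replicate 1 held 1.05 CPM and the others 0 and 0.0949 CPM.

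**Figure D3:**
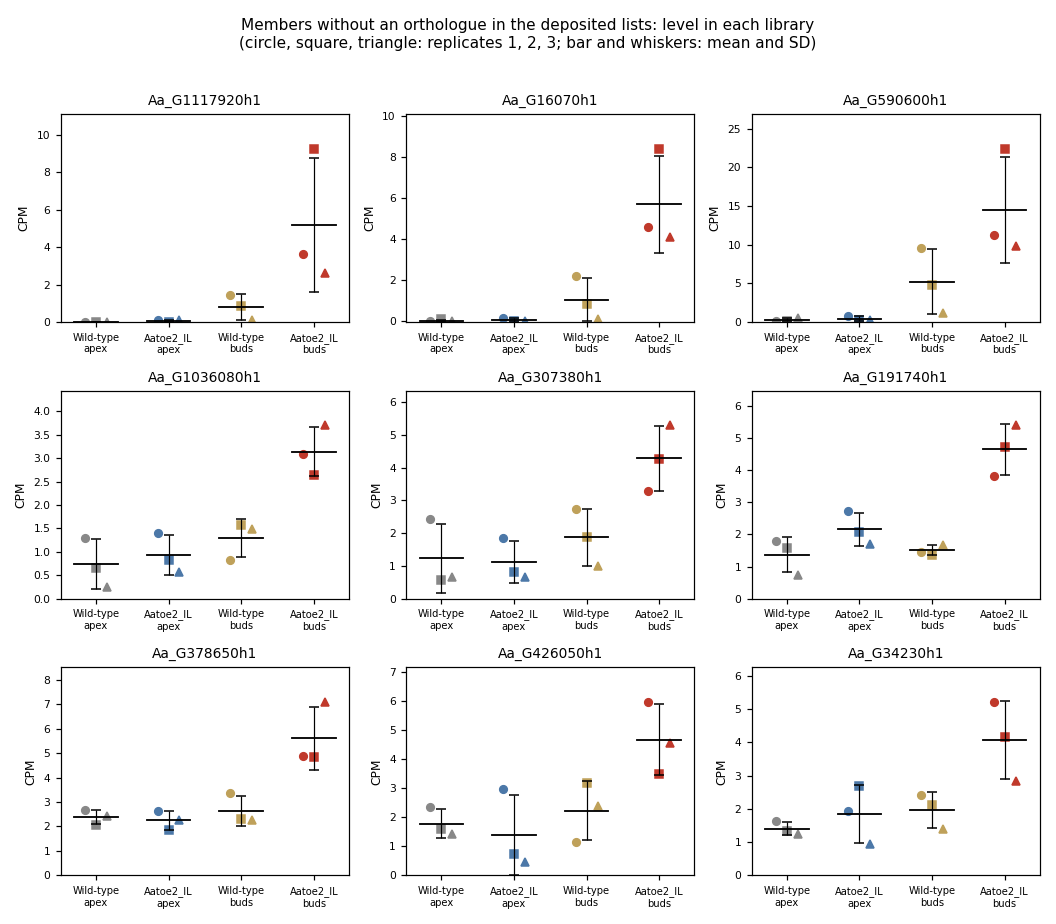
CPM (vertical axis) of the 9 genes without an orthologue in the deposited lists, in each library of the 4 groups, with points for replicates, bars for means and whiskers for the SD (n = 3). Aa_G1117920h1, Aa_G16070h1 and Aa_G590600h1 are near 0 in both apex groups, and the other 6 have a base level in all groups.

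The other 3 of these 5 genes have no orthologue in the deposited lists. Aa_G590600h1 had 11.3, 22.4 and 9.82 CPM in Aatoe2_IL buds and 9.63, 4.85 and 1.185 CPM in wild-type buds, so that wild-type replicate 1 came within a factor of 1.02 of the lowest Aatoe2_IL library. Aa_G16070h1 had 4.57, 8.41 and 4.12 CPM in Aatoe2_IL buds and 2.20, 0.843 and 0.0987 CPM in wild-type buds. Aa_G1117920h1 had 3.61, 9.26 and 2.64 CPM in Aatoe2_IL buds and 1.47, 0.843 and 0.0987 CPM in wild-type buds. In all 5 genes wild-type bud replicate 1 was the highest and replicate 3 the lowest of its group, and Aatoe2_IL replicate 2 was the highest of its own. That order of bud libraries was found in 0 of the other 20 members and in 13.8% of the genes tested. It was read from these 5 genes, so that its presence in all 5 was fixed and nothing is read from these counts. It leaves out the lowest Aatoe2_IL bud library, which was replicate 3 for 4 of the genes and replicate 1 for 1.

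The share of reads counted outside genes was likewise highest in wild-type bud replicate 1, lowest in replicate 3, and highest in Aatoe2_IL bud replicate 2. Its lowest Aatoe2_IL bud library was replicate 3, whereas AT3G44970 was lowest in replicate 1. It was 21.5%, 15.5% and 13.8% in wild-type bud replicates 1, 2 and 3 and 17.1%, 19.0% and 15.4% in Aatoe2_IL bud replicates 1, 2 and 3, and its part in the levels of these 5 genes was not tested. In apices the highest shares were 18.8% in wild-type replicate 1 and 21.1% in Aatoe2_IL replicate 2. In the latter library AT3G44970, AT3G61280, Aa_G16070h1 and Aa_G1117920h1 had 0 counts, and Aa_G590600h1 had 0.207 CPM.

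**Figure D4:**
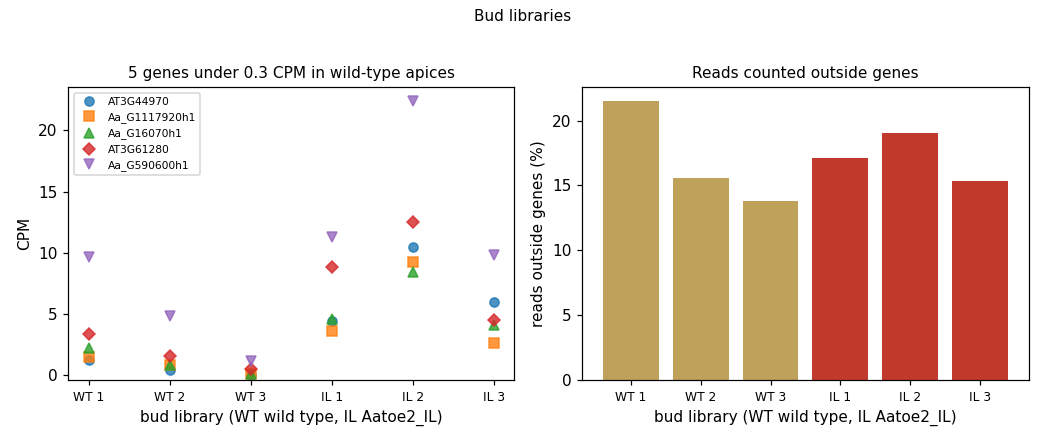
Left, CPM of the 5 genes with under 0.3 CPM in wild-type apices in each bud library; right, the percentage of reads counted outside genes in the same libraries (bars from 0). Wild-type replicate 1 and Aatoe2_IL replicate 2 are the highest of their group in both panels.

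The remaining 6 genes without an orthologue had low levels in every group. Aa_G426050h1 and Aa_G34230h1 lay next to the limit at 2.09 and 2.07 times the highest other mean. Their lowest Aatoe2_IL bud libraries, at 3.50 and 2.85 CPM, were only 1.11 and 1.06 times their highest other libraries. The other 4 had means of 3.14 to 5.60 CPM in Aatoe2_IL buds and ratios of 2.11 to 2.42. Just outside the limit stood UMAMIT33 (1.96), an amino acid transporter family gene, KMD4 (1.96), an F-box gene acting on cytokinin response regulators, and TCP24 (1.95), each with its ratio to the highest other mean.

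Which of the other 3 groups came next differed among the 25 genes. Wild-type buds had the highest mean of the other groups for 14 genes, Aatoe2_IL apices for 7 and wild-type apices for 4. Those 3 groups lay within a factor of 2 of each other for 17 of the 21 genes with more than 3 counts in each, TCP4, TCP10, PIL6 and BT2 included. The exceptions were Aa_G590600h1, AT2G34930, AT5G25970 and MYB47. No share over all genes was computed for these counts, and the choice of genes held all 3 groups under a limit. The counts are therefore not read as a trait of the 25 genes. The minimum of 0.5 CPM applied to wild-type buds and not to apices. It admits genes near 0 in apices but none with a wild-type bud mean under 0.5 CPM, although no gene was lost by it. Single wild-type bud libraries could still be at or near 0, as for AT3G44970, whose wild-type bud mean was 0.559 CPM.

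Whether Aatoe2_IL apices differed from wild-type apices was tested, since the choice of genes limited both groups from above but did not use the difference between them. In edgeR's quasi-likelihood test 0 of the 25 genes had a Benjamini-Hochberg adjusted p under 0.05, against 1.1% of all 19520 genes tested. All 25 had passed the filter on low counts, but 8 of them only through bud libraries. With the 6 apex libraries alone 17 of the 25 genes could be tested, and 0 passed, against 0.673% of all genes in that fit. MYB47, Aa_G590600h1, Aa_G1036080h1, Aa_G307380h1 and 4 genes at or near 0 in apices were the 8 that had too few reads. At an unadjusted p under 0.05 there were 2, MYB47 and NSH3, against 16.1% of all genes, and DESeq2's Wald test called 0 of 25, against 3.05%. For MYB47 the log2 change was 1.34 (SE 0.45, adjusted p by edgeR 0.161), and its adjusted p lay between 0.110 and 0.536 over the alternatives. These values rest on few reads, at 1.34 CPM or less in every apex library. MYB47 was the only gene of the 25 whose apex groups did not overlap, against 20.2% of all genes. For NSH3 the log2 change was 0.67 (SE 0.30, adjusted p by edgeR 0.290), and 0.22 without Aatoe2_IL apex replicate 1.

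For the regulators with more reads the apex values were close to 0. TCP4 had a log2 fold change of -0.29 (SE 0.21), TCP10 one of -0.15 (SE 0.20), PIL6 one of 0.07 (SE 0.23) and BT2 one of -0.07 (SE 0.51) in Aatoe2_IL against wild-type apices. Over the 21 genes with more than 3 counts in each apex group the log2 fold changes ran from -0.54 for AT2G34930 to 1.34 for MYB47, with a median of -0.07 against 0.00 over all genes tested. With the 4 genes at or near 0 in apices included, the median over all 25 was 0.33, though the values of those 4 rest on few reads. AT3G61280 was higher in Aatoe2_IL apices by a ratio of 4.98 (exact 95% interval 1.37 to 27.3, which covers counting error only), with an edgeR adjusted p of 0.497, and this rests on Aatoe2_IL replicate 1. In apices AT3G44970 had 4 counts in Aatoe2_IL against 0 in wild type and did not pass (edgeR adjusted p = 0.488). Its ratio was 1.53 with the wild-type group set at a floor of 3 counts, which is no lower limit. A p above the threshold does not show that the genotypes had equal levels in apices.

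**Figure D5:**
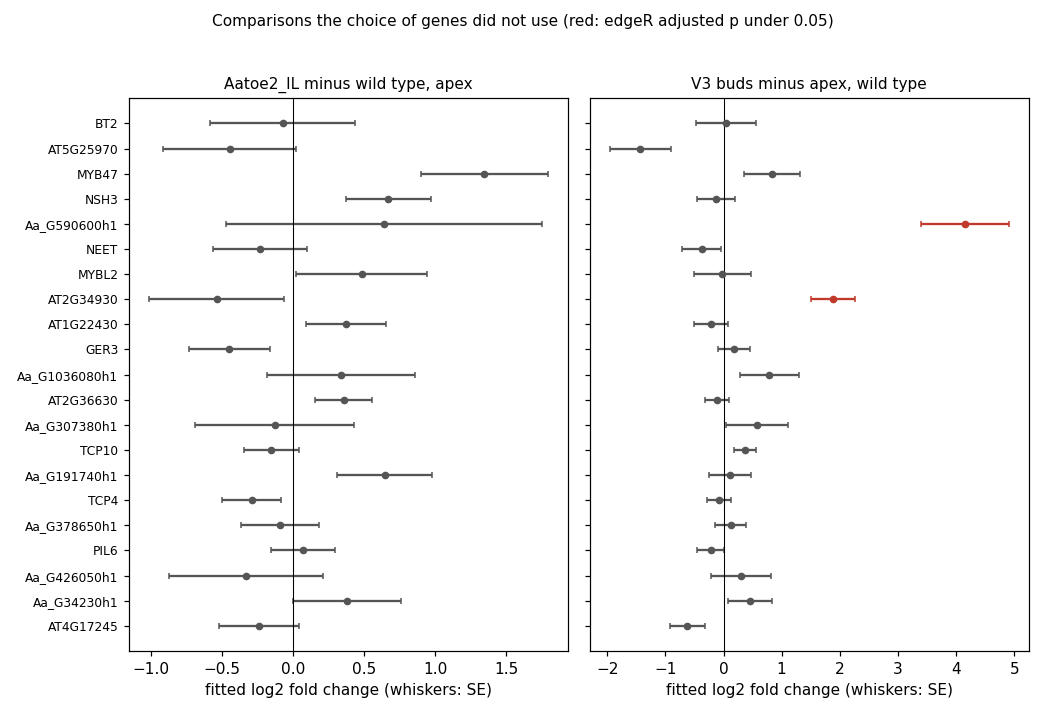
Fitted log2 fold changes with their SE (horizontal axis) of the 21 genes with more than 3 counts in each group compared, for Aatoe2_IL minus wild type in apices (left) and V3 buds minus apex in wild type (right). No gene passes on the left, and Aa_G590600h1 and AT2G34930 pass on the right.

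Whether wild-type buds differed from wild-type apices was tested in the same fit. Of the 25 genes 5 were higher in buds by edgeR at a Benjamini-Hochberg adjusted p under 0.05, against 4.86% of all genes, and 0 were lower, against 6.33%. Of these 5, AT3G61280, Aa_G16070h1 and Aa_G1117920h1 had too few reads in the 2 groups compared and entered the test through the Aatoe2_IL bud libraries, where their high level was a condition of the choice. A fit of these 2 groups alone could test 20 of the 25 genes, and AT2G34930 and Aa_G590600h1 were the 2 that were higher, against 3.59% of all genes in that fit. AT2G34930 had a log2 change of 1.88 (SE 0.38, adjusted p by edgeR 0.00434) and Aa_G590600h1 one of 4.14 (SE 0.76, adjusted p by edgeR 0.00216). AT3G61280 was higher by a ratio of 21.6 (exact 95% interval 6.998 to 108, edgeR adjusted p = 0.0253), with 52 counts in buds against 3. Aa_G16070h1 was higher by a ratio of 37.4 (6.22 to 1526, edgeR adjusted p = 0.0212), with 30 counts against 1. Both intervals cover counting error only and not the spread among libraries, and wild-type bud replicate 1 was the highest of its group for both genes. Aa_G1117920h1 had 23 counts against 0 (edgeR adjusted p = 0.0298), a ratio of 9.56 with wild-type apices set at a floor of 3 counts. AT3G44970 had 16 counts against 0, a ratio of 6.65 by the same floor, and did not pass (edgeR adjusted p = 0.0782). It too had too few reads in the 2 groups compared and entered the test through the Aatoe2_IL bud libraries.

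AT2G34930 and Aa_G590600h1 passed in every alternative run, with the log2 fold change of Aa_G590600h1 at 3.37 without wild-type bud replicate 1 and 4.86 without wild-type apex replicate 3. The other calls were lost when some single libraries were left out. The number of genes higher in wild-type buds was 2 without wild-type apex replicate 1 or 3 or wild-type bud replicate 1, and 3 without wild-type apex replicate 2 or wild-type bud replicate 2. Without wild-type apex replicate 1, in which all 3 low genes had 0 counts, the adjusted p by edgeR was 0.0670 for AT3G61280, 0.0574 for Aa_G16070h1 and 0.0553 for Aa_G1117920h1. AT5G25970 pointed the other way, with a log2 change of -1.43 (SE 0.53, adjusted p by edgeR 0.102). Without wild-type bud replicate 1 it was -2.14 and passed (edgeR adjusted p = 0.0484), and its adjusted p ran from 0.0367 to 0.228 over the alternatives. TCP4, TCP10, PIL6 and BT2 had log2 fold changes of -0.07 (SE 0.21), 0.37 (SE 0.19), -0.22 (SE 0.23) and 0.05 (SE 0.51) and did not pass. Wild-type buds and apices were fully separate for 7 of the 25 genes, and so were they for 26.8% of all genes.

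Aatoe2_IL bud libraries differed among themselves more for these genes than for most. The median CV over the 3 libraries was 23.2% for the 25 genes, with a range from 8.43% for AT1G22430 to 69.1% for Aa_G1117920h1, against 9.82% for the 16937 genes with 3 CPM or more, whose levels were mostly higher. Replicate 3 was the highest Aatoe2_IL bud library for 14 genes, among them TCP4, TCP10, PIL6, BT2, NSH3, NEET and GER3, replicate 2 for 7 and replicate 1 for 4. Among all genes with 3 CPM or more replicate 3 was the highest for 28.1%. The gap between the lowest Aatoe2_IL bud library and the highest other library was a factor of 1.66 in the median, and 3.55 at most, in AT3G44970.

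Every condition was still met by 9 genes whichever of the 12 libraries was left out. These 9 were AT3G61280, BT2, MYB47, NSH3, Aa_G590600h1, NEET, AT2G34930, AT1G22430 and AT2G36630. TCP4 had a ratio of 1.88 and PIL6 one of 1.77 without Aatoe2_IL bud replicate 3, and GER3 one of 1.97. Without wild-type bud replicate 1, AT3G44970, Aa_G1117920h1, Aa_G16070h1 and AT5G25970 fell out because their wild-type bud mean went under 0.5 CPM, while their ratios were 33.2, 10.99, 12.1 and 3.51. TCP10 had a ratio of 1.99 in that case. The number of genes was 45 without Aatoe2_IL bud replicate 1, 44 without Aatoe2_IL bud replicate 2, 42 without replicate 1 of both Aatoe2_IL groups, and between 23 and 32 without any other library.

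Markers of other tissues that had a name in the files differed between the bud groups. They carry names because the authors selected them as changed on these samples. A difference between genotypes was thus a condition of finding them, and nothing is read from it. Of 2 green leaf markers 1 had a name in the files, LHCB1.3, with 1731 to 1797 CPM in wild-type and 2997 to 4485 CPM in Aatoe2_IL buds. In apices LHCB1.3 had 1516 to 2173 CPM in wild type and 2235 to 3034 CPM in Aatoe2_IL, so that, like the 25 genes, it was highest in Aatoe2_IL buds, with a slight overlap with Aatoe2_IL apices. Of 3 phloem markers 1 had a name, SEOR1, with 3.27 to 7.85 CPM in wild-type and 11.1 to 16.0 CPM in Aatoe2_IL buds. The summed level of both carpel markers, CRC and SHP2, was 5.90 to 7.22 CPM in wild-type and 17.6 to 24.7 CPM in Aatoe2_IL buds. In apices SEOR1 had 30.1 to 32.6 CPM in wild type and 16.0 to 25.0 CPM in Aatoe2_IL, lower in Aatoe2_IL and thus opposite to buds. The carpel markers had 22.4 to 29.5 CPM in wild-type and 32.4 to 50.2 CPM in Aatoe2_IL apices. Both ran to higher levels in apices than in Aatoe2_IL buds. For SEOR1 the range of Aatoe2_IL buds touched that of Aatoe2_IL apices at 16.0 CPM. For the carpel markers it overlapped with wild-type apices between 22.4 and 24.7 CPM. The part of leaf, phloem or carpel tissue in the levels of the 25 genes was not tested. None of the 2 xylem and 5 meristem markers looked up had a name in the files, so that bud and apex identity could not be checked with them. A separate list of meristem and boundary genes held 3 named genes, which also carry names through the authors' selection. By edgeR 3 were lower in wild-type buds than in wild-type apices, against 6.33% of all genes, and 2 were higher in Aatoe2_IL than in wild-type buds, against 2.98%.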

How the data were processed

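Poly(A) RNA from 12 samples was sequenced from a strand-specific kit as single reads, per the labels' protocols. The authors deposited raw read counts for each gene as whole numbers. Their 4 deposited tables give group means of normalized counts (a signal), the fold as the ratio of these means, its log2 and an adjusted p-value, per the file headers. STAR, HTSeq 0.5.4p1, DESeq and DESeq2 are named in the submitters' processing notes without roles. The genome build, the gene models and whether counting used strand are not given in the sources used here. Genes that overlap others, on either strand, are therefore uncertain, and neither coordinates nor sequences are printed. The last 5 entries of the count table are counters and were left out of totals and tests. Reads outside genes or ambiguous came to 16.7% to 24.7% per library.

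CPM were computed from the deposited counts with no further scaling. Table identifiers lack the copy suffix and were matched through the authors' group means, within 0.5% for 732 of 732 entries. Tests used edgeR 4.0.16 under R 4.3.3 (TMM, default low-count filter, quasi-likelihood F test), with 12 libraries in 1 fit, 8 residual degrees of freedom and Benjamini-Hochberg adjustment over 19520 genes at 0.05. The SE was approximated from the log2 fold change and its F statistic. Groups at 0 counts were set at 3 counts over the group, and the ratios depend on that setting and are no lower limits. Groups with 1 to 3 counts are given as ratios with exact 95% intervals, which cover counting error only. Alternatives were DESeq2 1.42.0, its size factors, other filters and conditions, a replicate block and leaving out libraries. In simulated counts for the apex comparison (19337 genes) the fit recovered 77% of 2-fold and 96% of 4-fold changes. For the wild-type tissue comparison (19329 genes) it recovered 75% and 99%. False calls were 10 of 183 genes called in the former and 9 of 183 in the latter. Recovery was not split by level. It therefore does not give the chance of detecting a change at the low apex levels of many chosen genes.

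The genes, lists and alternatives were chosen with earlier results of these data known. Named were all genes with a symbol or orthologue, those that passed, the highest and most raised genes without a name, and those next to the 2-fold limit. The genotype effect in buds and its difference from that in apices were fixed by the choice of genes and were not tested for them.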

Additional observations from a re-analysis of the deposited data

How the results depend on the processing

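No direction reversed among results that passed. The number of genes meeting the conditions, 25, was 79 with a factor of 1.5, 7 with a factor of 3 and 38 with a minimum of 1 CPM in Aatoe2_IL buds, and it ranged from 23 to 45 when single libraries were left out. It was 42 without replicate 1 of both Aatoe2_IL groups, an alternative added with earlier results known, where the median ratio to the highest other group moved from 2.59 to 2.93. The count in apices was 0 in every alternative run. The count of genes that passed in wild-type buds against apices, 5, all higher in buds, was 2 with only the 2 groups compared, where the other 3 failed the filter on low counts, and ranged from 2 to 6 in either direction without single libraries. With the replicate number as a block it was 6, of which 5 were higher in buds and 1, AT5G25970, lower, and it was 0 in apices. Same-numbered samples correlated in their deviations by -0.03, -0.29 and 0.09 between genotypes in apices and by 0.36, 0.06 and 0.25 between tissues in wild type. Samples with different numbers correlated by -0.17 to 0.18 in apices and by -0.34 to 0.14 between tissues. The labels state no pairs and the main fit used none, although same-numbered wild-type tissues were mostly the more alike. Of 751 single values under alternatives, 31 changed sign, none of them passing either way, and 5 could not be given because the gene failed a filter. Genes under about 3 CPM rest on few reads per library, and small differences between them were not detectable at this depth.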
